A study of Mus musculus with 10 samples.

Results

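The machinery that copies DNA in each S phase was followed through 48 genes, chosen by symbol from a list of replication factors, out of 55536 genes in the count table. They cover origin licensing (9 genes), the replicative helicase (13), the DNA polymerases with primase (11), the sliding clamp with its loader and the lagging-strand factors (11), and the supply of deoxynucleotides (4). All 48 passed the filter on low counts, which kept 20317 genes. The samples were female mouse germ cells of E14.5 (embryonic days), in 10 libraries. Taf4b-deficient cells gave 4 libraries, Taf4b-heterozygous cells 4 and Taf4b-wildtype cells 2. TAF4b is a gonad-enriched subunit of TFIID, the complex that places RNA polymerase II at promoters. By the labels, deficient females are infertile and females of the other genotypes fertile, and the design asks how deficient oocytes differ. All groups share an Oct4-EGFP reporter from parents homozygous for it and heterozygous for the Taf4b mutation, the strain label C57BL/6, and a sort of live cells by green fluorescence, so a germ cell counts only while the reporter is bright enough to pass the gate. Neither the part of Taf4b that is removed nor the number of fetuses behind a library is stated, so a p-value here speaks only of the spread among libraries, part of which may be technical.

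Replication starts when the origin recognition complex, CDC6 and CDT1 load the ring of MCM2 to MCM7 onto DNA. CDC45 and the GINS complex then turn that ring into an active helicase, polymerase alpha with primase lays down primers, and polymerases epsilon and delta extend them on the clamp PCNA. Female germ cells of the mouse replicate their DNA a last time in premeiotic S phase, around the embryonic day sampled here, and then enter meiotic prophase without a further round. Many replication genes are known targets of E2F transcription factors, which drive entry into S phase.

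Library totals ran from 28949924 to 44166320 reads. Values are given in CPM, read counts scaled to the size of the library. Taf4b was lower in every deficient library (56.1 to 64.9 CPM) than in the heterozygous (144 to 234 CPM) and wildtype ones (152 and 207 CPM), so the deficient labels match this gene. Germ cell markers (Ddx4, Dazl, Pou5f1, Dppa3, Kit, Stra8 and Sycp3) summed to 4837 to 5857 CPM in the 10 libraries, and pregranulosa markers to 21.1 to 53.0 CPM. Stromal and endothelial markers other than Pecam1, which germ cells also express, summed to 5.12 to 14.8 CPM. Blood and macrophage markers summed to 23.7 to 28.1 CPM in deficient, 8.94 to 18.3 CPM in heterozygous, and 27.6 and 18.5 CPM in wildtype libraries. Reads of Gm23935, which resemble ribosomal RNA, were few in 3 libraries: deficient replicate 2 (454 CPM), deficient replicate 4 (141 CPM) and heterozygous replicate 3 (87.4 CPM).

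The replication genes all stood in the upper part of the tested genes, since the lowest, Gins2, lay above 56.6% of them. Levels between genes are compared here in the deposited TPM values (scaled for transcript length and library size), as mean ± SD over the 10 libraries. The single-strand binding subunit Rpa2 was the highest at 620 ± 81.3 TPM, above 99.0% of the tested genes, followed by Mcm6 at 524 ± 88.5 TPM and Mcm5 at 465 ± 65.8 TPM. At the low end were Gins2 at 11.7 ± 2.64 TPM, the polymerase epsilon subunit Pole2 at 27.6 ± 3.03 TPM and the loading factor Cdc6 at 29.6 ± 3.97 TPM. Subunits of 1 ring were not equal, since MCM2 to MCM7 transcripts ran from 199 ± 45.8 TPM (Mcm7) to 524 TPM (Mcm6). GINS subunits ran from 11.7 TPM (Gins2) and 39.0 ± 17.4 TPM (Gins3) to 120 ± 17.4 TPM (Gins4) and 124 ± 12.2 TPM (Gins1). The loader subunits ran from 55.8 ± 8.93 TPM (Rfc2) and 56.7 ± 8.94 TPM (Rfc1) to 401 ± 52.2 TPM (Rfc4).

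Summed over the 48 genes, the level was 8286, 8336, 8697 and 9545 TPM in deficient libraries, 8739, 7612, 9626 and 7743 TPM in heterozygous and 8490 and 8374 TPM in wildtype libraries. The heterozygous libraries held both the highest and the lowest sum, and the genotypes overlapped. Of the sum in heterozygous replicate 1, 3191 TPM came from helicase genes and 1089 TPM from nucleotide supply. In heterozygous replicate 2 these steps gave 2482 and 726.3 TPM. Levels computed instead from counts and exon length ranked the 48 genes much alike (Spearman's rho 0.898 over 48 genes of the same libraries, a description). The deposited level was over 1.5 times higher for 9 genes and over 1.5 times lower for 2. The largest ratio was that of Fen1, which is taken up at the end. Orc3 had 113 TPM by that calculation in place of 221 TPM, Rrm1 92.1 in place of 178 TPM, Cdt1 87.2 in place of 46.1 TPM and Cdc6 46.1 in place of 29.6 TPM. Mcm6 (572 TPM) then stood above Rpa2 (546 TPM), and Cdc6 ranked 40 of the 48 genes in place of 46.

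**Figure D1:**
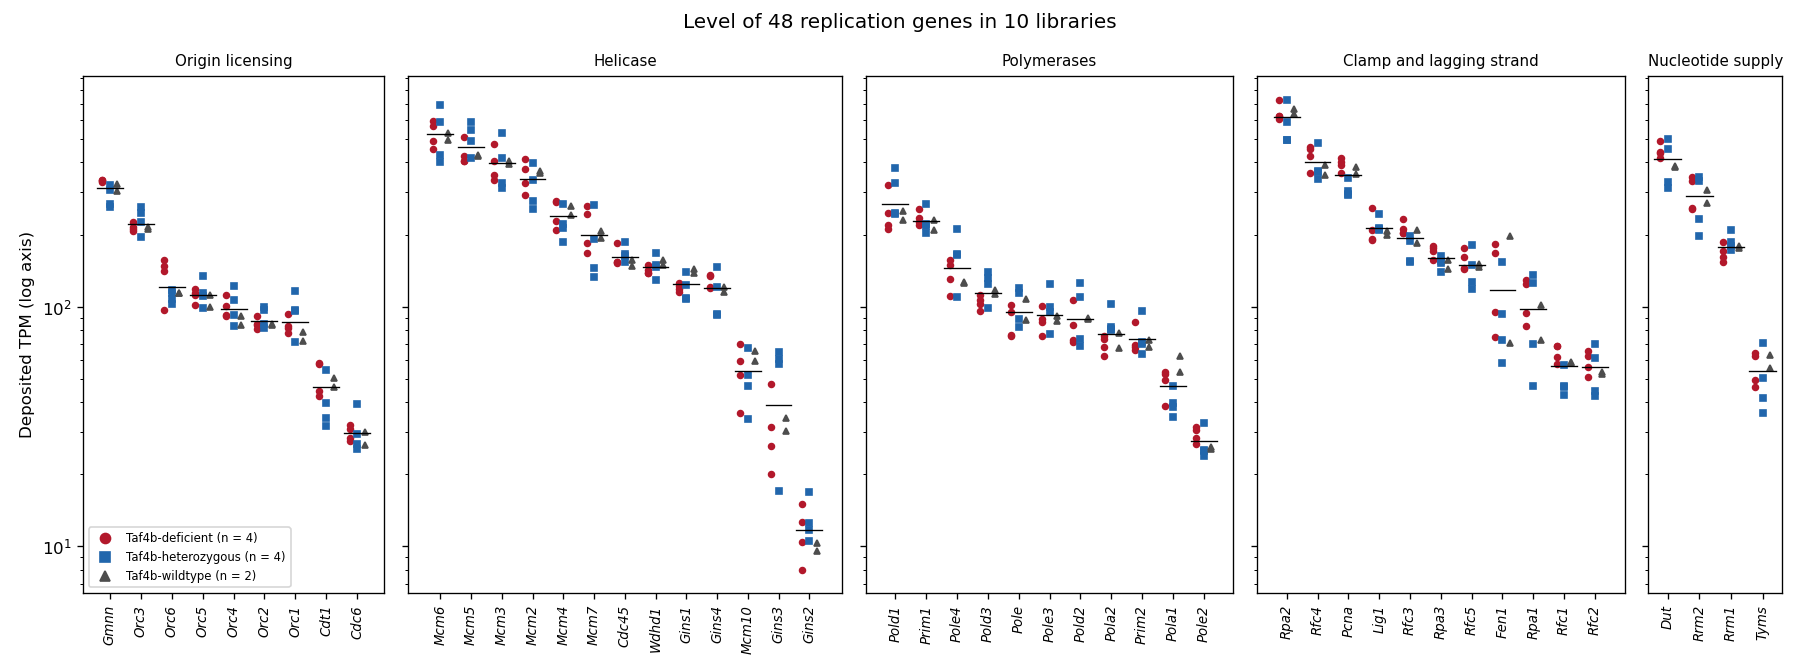
Deposited TPM (log axis) of the 48 replication genes in the 10 libraries, by step. Points are single libraries (red circles deficient, blue squares heterozygous, grey triangles wildtype) and black lines are means over the 10 libraries, from 620 TPM for Rpa2 to 11.7 TPM for Gins2.

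No replication gene passed the threshold by genotype in edgeR. At an edgeR adjusted p under 0.05, 0 of the 48 genes were called in deficient against heterozygous libraries, where 0.0148% of all tested genes were called. Against wildtype 0 were called (0% of all genes), against both fertile genotypes together 0 (0.00492%), and in heterozygous against wildtype libraries 0 (0.00492%). At an unadjusted p under 0.05 the counts in these comparisons were 6 of 48 (12.5%, all tested genes 11.9%), 0 (all genes 3.66%), 1 (2.08%, all genes 4.31%) and 1 (2.08%, all genes 8.30%). DESeq2 also called 0 of the 48 genes in each comparison, where it called 224, 1, 8 and 480 of all tested genes. Limma voom with sample weights differed: it called 12 of 48 in deficient against heterozygous libraries, all higher (14.8% of all genes called), and 4 in heterozygous against wildtype libraries, all lower (5.23%). In the authors' deposited table, whose contrast is not stated, 0 of the 48 genes had an adjusted p under 0.05 (0.0143% of its 21049 genes) and 0 an unadjusted p under 0.05 (6.39%), and the smallest adjusted p was 0.787. In bulk RNA, fewer cells in S phase and less RNA per cell cannot be told apart.

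Deficient libraries stood above heterozygous ones for 32 of the 48 genes (66.7%, all tested genes 44.9%), with a median log2 fold change of 0.15, beside -0.05 over all tested genes. All 11 genes of the clamp step stood above 0 there in counts (median 0.28, range 0.06 to 0.49), and in deposited TPM 10 of 11 did (median 0.18), with Lig1 at -0.06. Without Fen1, whose level is uncertain, the other 10 clamp genes all stood above 0 in counts (median 0.29). In the polymerase step 3 of 11 did (median -0.08). Deficient against wildtype libraries, which use the same deficient samples, gave a median of 0.03 for the 48 genes beside 0 over all genes. There 9 of 11 clamp genes stood above 0 (median 0.09), as did 50.6% of all tested genes. Heterozygous against wildtype libraries gave 16 of 48 above 0 (33.3%, all tested genes 52.6%), with a median of -0.11 (all genes 0.02). Of the clamp genes 0 of 11 stood above 0 (median -0.18). This comparison uses the same heterozygous samples as the first with the opposite sign, so its signs are not separate evidence. In deposited TPM the median of the 48 genes was 0.04 in deficient against heterozygous libraries (all genes -0.08) and turned to 0.02 in heterozygous against wildtype libraries (all genes 0.06), where 5 of 11 clamp genes stood above 0. Libraries of deficient and heterozygous genotype did not overlap in CPM for 4 of the 48 genes (5.97% of all tested genes), all of them higher in deficient libraries (3.31% of all tested genes). These were Gmnn, Pole2, Rfc1 and Pcna. In deposited TPM 5 genes did not overlap (6.57% of all tested genes), with Gmnn, Rfc1, Rfc3 and Pcna above and Pola2 below. Deficient and wildtype libraries did not overlap for 6 genes (12.6% of all tested genes), with Orc1, Orc4, Pole2, Prim1 and Rfc4 above and Gins1 below. Heterozygous and wildtype libraries did not overlap for 3 (15.8% of all tested genes), with Orc4 above and Wdhd1 and Pola1 below. Of 13 tested blood and macrophage markers, 11 also stood above 0 in deficient against heterozygous libraries (median 0.96, 0 called). At an unadjusted edgeR p under 0.05 there were 8 of the 13 (61.5%), beside 11.9% of all tested genes and 12.5% of the 48 genes. Hba-a1 and Hbb-bt, which mark red cells, were at 0 in 2 and 1 libraries, and the highest marker sum was 28.1 CPM. The part of such cells in the clamp differences was not tested.

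**Figure D2:**
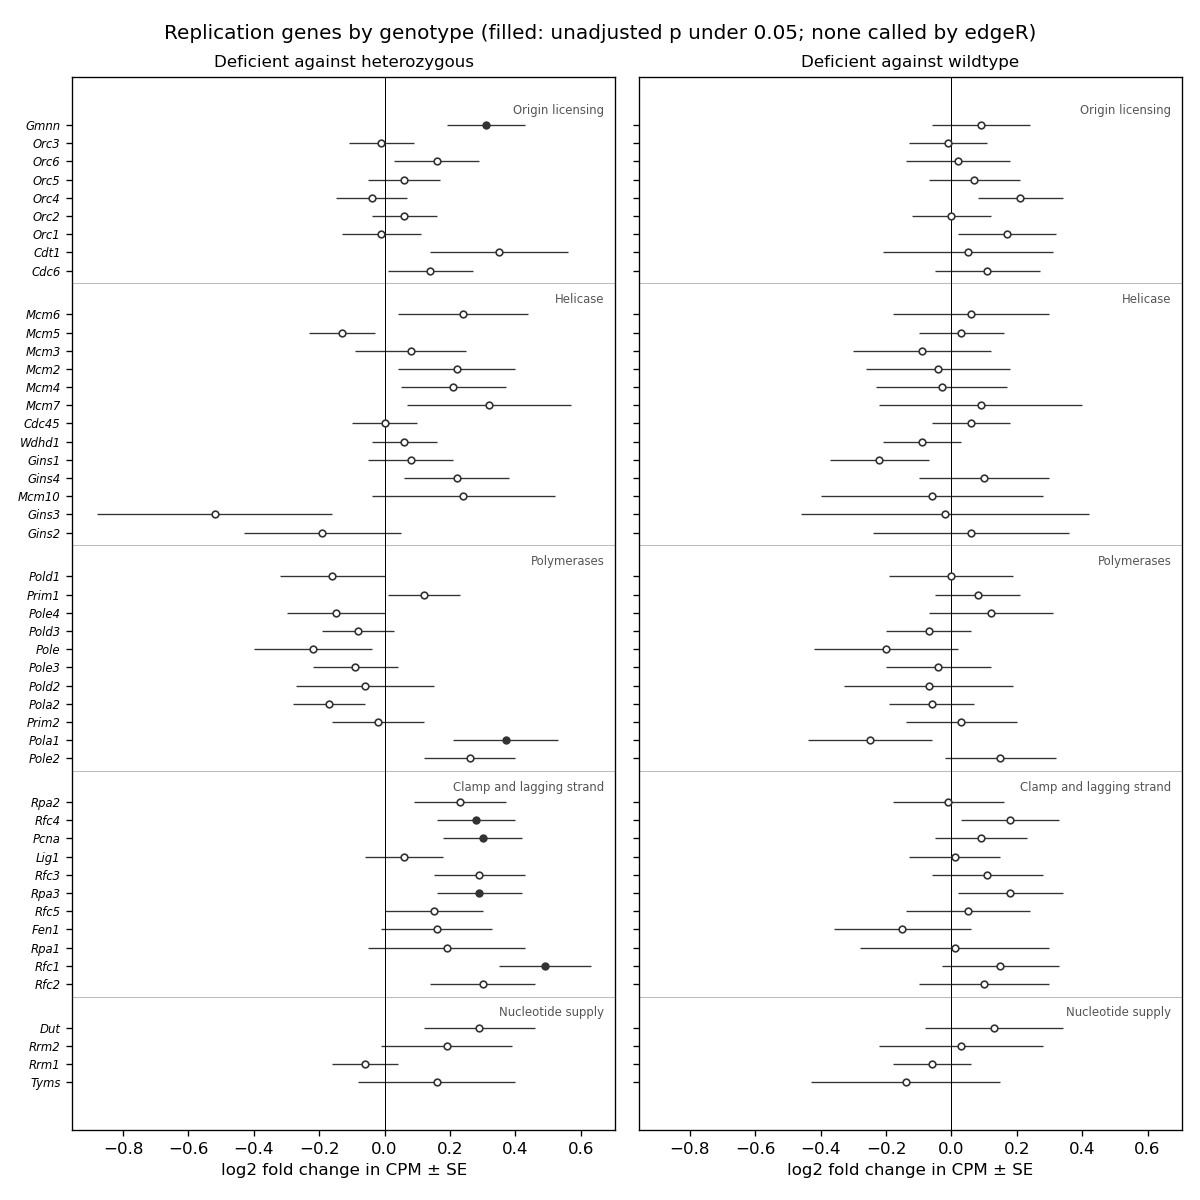
Log2 fold change in CPM (horizontal axis, bars ± SE) of each replication gene, by step, in deficient against heterozygous (left) and deficient against wildtype libraries (right). Filled points have an unadjusted p under 0.05: Gmnn, Pola1, Rfc4, Pcna, Rpa3 and Rfc1 on the left, and 0 genes on the right.

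The libraries, all of 1 embryonic day, differed widely in the balance of meiotic and early germ cell transcripts. Stage was measured in each library as a meiotic index, the mean log2 CPM of 31 meiotic chromosome and recombination genes minus that of 22 pluripotency and early germ cell genes. No replication gene enters it, nor does Pou5f1, whose reporter was sorted on. In order of replicate, the deficient libraries had an index of 0.60, 1.58, -1.33 and 0.20, the heterozygous libraries -1.34, 2.45, 2.20 and 2.03, and the wildtype libraries 0.31 and 0.74. The deficient mean was 0.26 ± 1.21 (SD, n = 4), the heterozygous mean 1.34 ± 1.79 (SD, n = 4) and the wildtype mean 0.52 ± 0.31 (SD, n = 2). Deficient replicate 3 and heterozygous replicate 1 thus stand at the early end, and 3 of the 4 heterozygous libraries at the late end. A high index is a higher ratio of the lists in bulk RNA, and a mixture of stages and a uniform shift cannot be told apart.

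Along this index, with genotype in the model, 15 of the 48 genes were called by edgeR (31.2%, beside 24.8% of all tested genes). Of these, 12 fell with a rising index (25.0%, all genes 11.8%) and 3 rose (6.25%, all genes 13.0%). The helicase step held 8 of the 15 (6 falling and 2 rising) and nucleotide supply 3, all falling. The polymerases held 2 (1 in each direction), and licensing and the clamp step held 1 falling gene each. The median slope was -0.05 log2 per unit of index over the 48 genes and 0 over all genes. The 48 genes are all well expressed, and among genes with a mean of at least 1 CPM 16 of the 48 were called beside 32.6% of all genes. With library totals in place of TMM scaling the split was 4 rising and 9 falling. In deposited TPM (limma on log2(TPM + 1)) 10 genes were called (20.8%, all genes 19.9%), 3 rising (6.25%, all genes 13.3%) and 7 falling (14.6%, all genes 6.56%). There Mcm3, Gins2, Pola1, Rfc1, Rrm2 and Dut were not called and Pole3 was, and the median slope of the 48 genes was 0.

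The calls leaned on the library of lowest index. Without heterozygous replicate 1 only Gins3 and Mcm10 of the 48 genes remained called, and the calls among all genes numbered 687 in place of 5039. Without both libraries farthest from the median index (heterozygous replicate 1 and deficient replicate 3) 0 of 48 and 0 of 20137 genes were called by edgeR. At an unadjusted p under 0.05 there were then 5 of 48 (all genes 7.03%). The slopes of the 15 genes kept their sign there, with Mcm10 at -0.40, Mcm7 at -0.37 and Gins3 at 0.55. The litters of January 29 and of March 7 hold 4 of these libraries each, and slopes within them carry no genotype term. On January 29 the index ran from 0.31 in a wildtype to 2.03 in a heterozygous library, so genotype and stage cannot be told apart there. The March 7 litters include heterozygous replicate 1, on which the calls leaned. These slopes are therefore a description and not a second test. They were -0.37 and -0.27 for Mcm10, -0.40 and -0.28 for Mcm7, and 0.45 and 0.48 for Gins3. Of the 33 genes not called, 28 had a slope below 0 on January 29 and 20 on March 7 (all genes 47.4% and 51.4%). The litters of March 1 hold 2 libraries and give no slope.

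**Figure D3:**
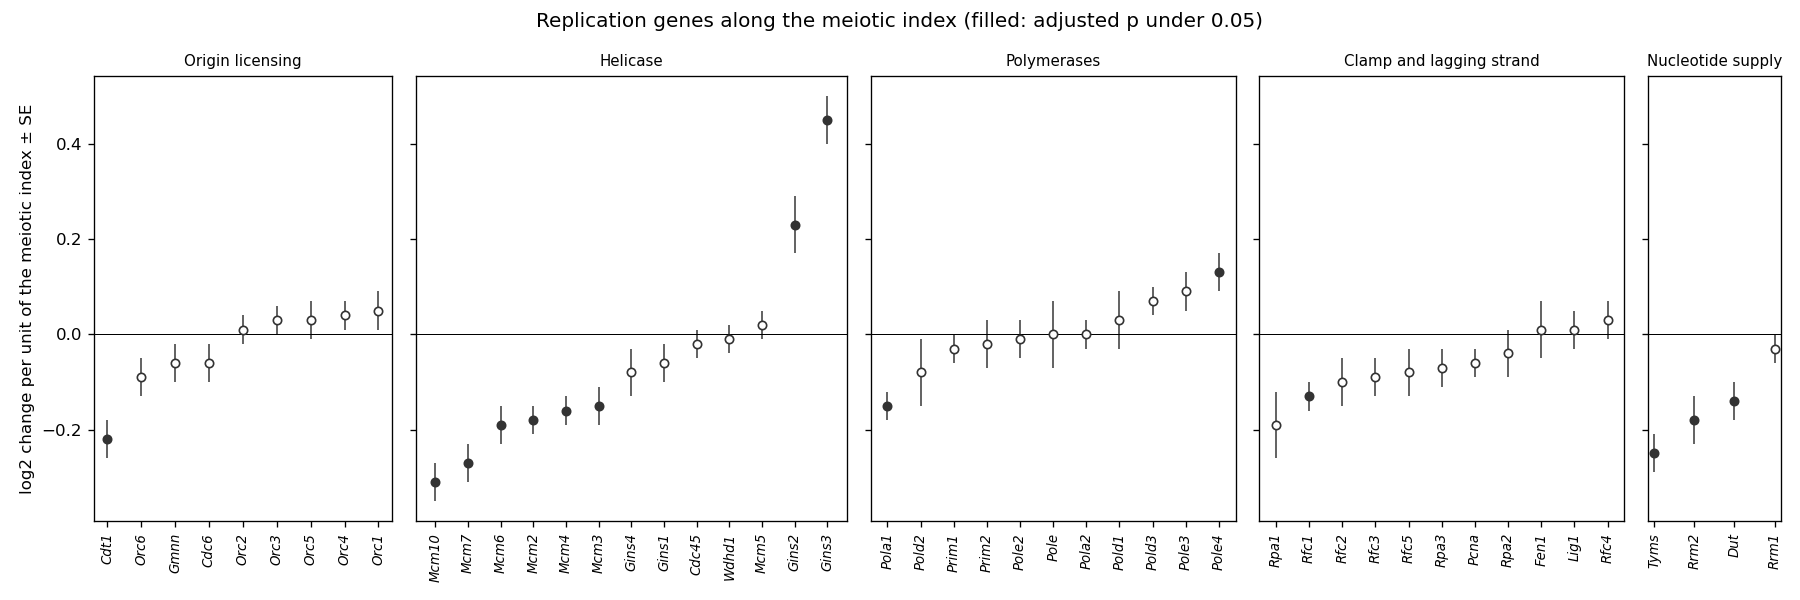
Log2 change in CPM per unit of the meiotic index (vertical axis, bars ± SE) for the 48 replication genes, by step, from edgeR with genotype in the model. Filled points have an adjusted p under 0.05: 12 lie below 0, from Mcm10 at -0.31 to Rfc1 at -0.13, and 3 above, Gins3 at 0.45, Gins2 at 0.23 and Pole4 at 0.13.

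In origin licensing, Cdt1, which delivers the MCM ring to origins, was the 1 gene of 9 that fell along the index, by 0.22 log2 per unit (SE 0.04, edgeR adjusted p = 0.00207). Cdt1 stood at 97.4, 92.3, 129 and 117 CPM (deficient), 127, 65.4, 81.5 and 68.5 CPM (heterozygous) and 113 and 97.2 CPM (wildtype). Its highest values, 129 and 127 CPM, were those of deficient replicate 3 and heterozygous replicate 1, and the 3 late heterozygous libraries held its lowest. Without a genotype term, the index slope of Cdt1 was -0.34 within the January 29 litters and -0.24 within those of March 7.

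Gmnn encodes geminin, the inhibitor that keeps CDT1 from loading MCM rings a second time in 1 cycle. It stood at 225, 233, 245 and 218 CPM (deficient), 212, 165, 198 and 167 CPM (heterozygous) and 236 and 197 CPM (wildtype). All deficient libraries lay above all heterozygous ones, and the wildtype libraries spanned both. The log2 fold change of Gmnn was 0.31 against heterozygous (SE 0.12, edgeR adjusted p = 0.383) and 0.09 against wildtype (SE 0.15). Its index slope of -0.06 was not called (adjusted p = 0.227), so geminin and Cdt1 transcripts had slopes of different size, a difference that was not tested.

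The origin recognition complex, which marks origins, varied little along the index, with slopes of its 6 subunits from -0.09 (Orc6) to 0.05 (Orc1). Orc3, the subunit gene of highest level, stood at 247, 244, 245 and 245 CPM (deficient), 229, 259, 267 and 235 CPM (heterozygous) and 256 and 236 CPM (wildtype). Orc6 stood at 88.6, 101, 116 and 99.8 CPM (deficient), 105, 81.6, 90.8 and 84.9 CPM (heterozygous) and 108 and 92.4 CPM (wildtype). Orc1, the largest subunit, stood at 106, 107, 118 and 117 CPM (deficient), 94, 113, 131 and 113 CPM (heterozygous) and 99.1 and 99.9 CPM (wildtype). Orc3 was nearly flat in deficient libraries, and neither Orc6 nor Orc1 separated the genotypes except that deficient libraries lay above both wildtype ones in Orc1. Orc4 stood at 135, 149, 147 and 135 CPM (deficient), 131, 147, 163 and 139 CPM (heterozygous) and 127 and 117 CPM (wildtype). Deficient and heterozygous libraries both lay above both wildtype libraries in Orc4, at log2 fold changes of 0.21 and 0.25 (SE 0.13 each, neither called). Cdc6, which joins the complex to load MCM rings, stood at 84.3, 82.6, 104 and 92.6 CPM (deficient), 87.3, 71.6, 95.3 and 75.5 CPM (heterozygous) and 86 and 82.5 CPM (wildtype). Its genotypes overlapped. An exonic overlap with Nif3l1 on the other strand covers 29.8% of Orc2, so its counts are uncertain.

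The helicase step held the most calls along the index. Of the 6 ring genes, Mcm2, Mcm3, Mcm4, Mcm6 and Mcm7 fell along the index and Mcm5 was not called. Mcm7 stood at 288, 257, 401 and 387 CPM (deficient), 432, 209, 232 and 193 CPM (heterozygous) and 342 and 284 CPM (wildtype). Heterozygous replicate 1 held 432 CPM and the other heterozygous libraries 193 to 232, so this genotype alone covered the whole range. The index slope of Mcm7 was -0.27 (SE 0.04, edgeR adjusted p = 0.000852). Mcm6, the ring gene of highest level, stood at 975, 889, 1210 and 1060 CPM (deficient), 1240, 638, 934 and 695 CPM (heterozygous) and 1080 and 906 CPM (wildtype), with a slope of -0.19 (SE 0.04, adjusted p = 0.00868). Mcm2 stood at 590, 525, 779 and 648 CPM (deficient), 739, 435, 549 and 457 CPM (heterozygous) and 694 and 615 CPM (wildtype), and Mcm4 at 434, 402, 551 and 504 CPM (deficient), 533, 337, 384 and 376 CPM (heterozygous) and 527 and 439 CPM (wildtype). Both were highest in deficient replicate 3, and their slopes were -0.18 (adjusted p = 0.00254) and -0.16 (adjusted p = 0.00381). Mcm3 had a slope of -0.15 (adjusted p = 0.0234).

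Mcm5 ran flat where its partners fell. It stood at 639, 671, 688 and 760 CPM (deficient), 703, 796, 814 and 697 CPM (heterozygous) and 705 and 649 CPM (wildtype). The late heterozygous replicates 2 and 3 held its highest values, 796 and 814 CPM, and Mcm6 was at 638 and 934 CPM in them. The Mcm5 slope was 0.02 (SE 0.03, adjusted p = 0.733), with an interval that a normal multiple of SE puts at -0.05 to 0.09. Within the litters of January 29 and of March 7 it was 0.01 and 0.05, without a genotype term. The difference between the slopes of Mcm5 and the other ring genes was not tested.

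Mcm10, which joins the ring after loading and helps to start unwinding, had the steepest fall of the 48 genes. It stood at 90.9, 73.2, 155 and 103 CPM (deficient), 141, 63.1, 80.2 and 73.1 CPM (heterozygous) and 117 and 103 CPM (wildtype). Its values ran from 155 CPM in deficient replicate 3 to 63.1 CPM in heterozygous replicate 2, the library of highest index. The slope was -0.31 log2 per unit (SE 0.04, edgeR adjusted p = 0.00024), and it kept a call without each of the 10 libraries in turn.

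The GINS subunits, which bind CDC45 and the ring in the active helicase, did not move together. Gins3 stood at 38.7, 59.5, 24.9 and 31.8 CPM (deficient), 20.8, 72.6, 65 and 63.7 CPM (heterozygous) and 40.2 and 38.4 CPM (wildtype). It was lowest in heterozygous replicate 1 and deficient replicate 3 and highest in the late heterozygous libraries, the reverse of Mcm10. Its slope was 0.45 (SE 0.05, edgeR adjusted p = 0.000115), 0.47 in deposited TPM on the log2(TPM + 1) scale by limma (adjusted p = 7.6e-05), and called without each of the 10 libraries in turn. Gins2 stood at 14.8, 18.2, 11.4 and 12.3 CPM (deficient), 10.1, 18.4, 21.2 and 14.7 CPM (heterozygous) and 14.7 and 12.5 CPM (wildtype), with a slope of 0.23 (SE 0.06, adjusted p = 0.0127). The exons of Gse1 on the other strand cover 67.3% of Gins2, so its reads are uncertain. Gse1 itself had a slope of -0.10 (adjusted p = 0.288), and in deposited TPM the slope of Gins2 was 0.14 and not called (limma adjusted p = 0.172).

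Gins1 stood at 70.1, 73.4, 73.1 and 71.2 CPM (deficient), 78, 60.3, 73.9 and 59.7 CPM (heterozygous) and 90 and 77.7 CPM (wildtype). All deficient libraries lay below both wildtype ones, at a log2 fold change of -0.22 (SE 0.15, not called). Gins4 stood at 86.2, 87.1, 101 and 93 CPM (deficient), 91.5, 64.1, 96.7 and 64.4 CPM (heterozygous) and 91.6 and 80.1 CPM (wildtype). Its low values were those of heterozygous replicates 2 and 4. Neither gene was called along the index (slopes -0.06 and -0.08). Wdhd1, which tethers polymerase alpha to the helicase, stood at 331, 289, 320 and 304 CPM (deficient), 292, 295, 298 and 307 CPM (heterozygous) and 348 and 315 CPM (wildtype). Heterozygous libraries lay below both wildtype libraries in Wdhd1. Cdc45 was among the steadiest of the 48 genes, within 148 to 187 TPM over the 10 libraries.

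**Figure D4:**
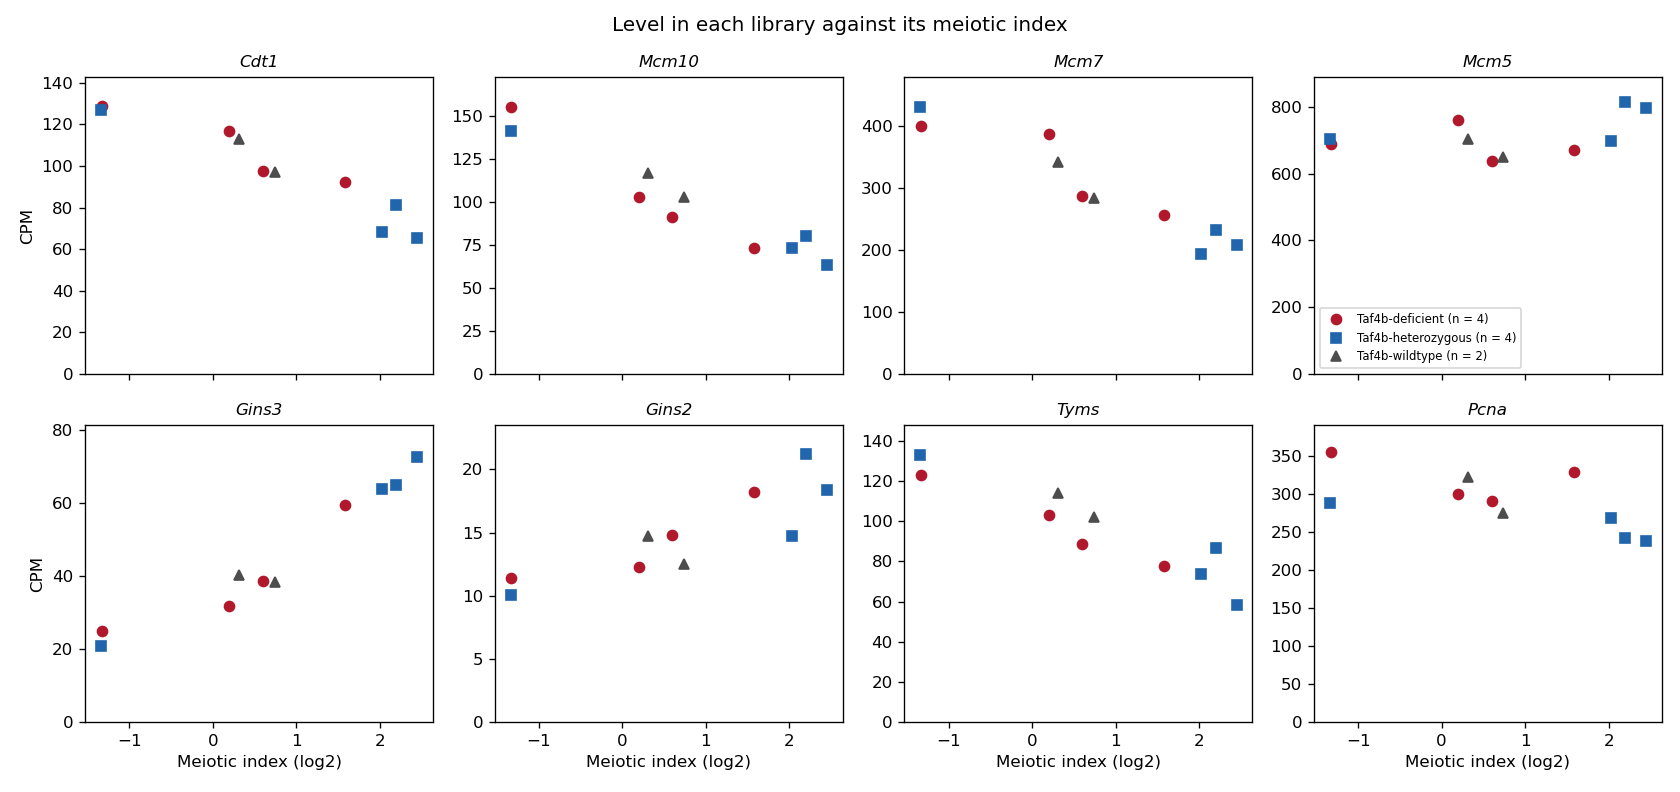
CPM in each library (vertical axes, each from 0) against its meiotic index (horizontal axis, log2) for 8 replication genes. Cdt1, Mcm10, Mcm7 and Tyms decline, Gins3 climbs from 20.8 CPM in the library of lowest index to 72.6 CPM in that of the highest, and Mcm5 stays between 639 and 814 CPM.

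Upstream sequences of 4 genes are shown as examples with and without an E2F-type match, among windows that hold no annotated exon of the gene itself. Gins3 and Pole4, which rose and have a match, are not among them. They are the 250 bases before the annotated start in RefSeq (GRCm38.p6), 5′ to 3′ on the gene's strand. Capitals mark matches to TTTCCCGC, TTTCGCGC, TTTGCCGC or TTTGGCGC on either strand, and overlapping matches run together. Mcm6 (chr1:128359706-128359955, minus strand) fell and has 3 matches, 2 of them overlapping. Mcm5 (chr8:75109259-75109508, plus strand) was not called and has 2 overlapping matches. Pola1 (chrX:93632156-93632405, minus strand) fell and has 1 match. Mcm10 (chr2:5012792-5013041, minus strand) had the steepest fall and has 0 matches in this window.
Mcm6: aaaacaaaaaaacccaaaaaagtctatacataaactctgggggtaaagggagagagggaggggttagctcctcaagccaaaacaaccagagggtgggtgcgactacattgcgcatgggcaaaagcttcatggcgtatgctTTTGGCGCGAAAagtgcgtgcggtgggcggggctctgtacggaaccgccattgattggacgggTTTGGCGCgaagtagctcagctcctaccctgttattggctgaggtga
Mcm5: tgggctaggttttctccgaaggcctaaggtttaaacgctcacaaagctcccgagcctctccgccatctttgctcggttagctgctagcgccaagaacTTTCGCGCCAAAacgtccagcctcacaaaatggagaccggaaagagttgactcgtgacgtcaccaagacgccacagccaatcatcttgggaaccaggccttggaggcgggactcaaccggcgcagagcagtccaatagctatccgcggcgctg
Pola1: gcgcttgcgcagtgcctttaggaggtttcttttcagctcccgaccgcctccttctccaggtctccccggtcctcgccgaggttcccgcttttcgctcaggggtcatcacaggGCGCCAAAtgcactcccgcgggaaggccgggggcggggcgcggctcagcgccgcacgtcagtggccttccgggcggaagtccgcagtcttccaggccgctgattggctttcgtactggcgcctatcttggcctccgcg
Mcm10: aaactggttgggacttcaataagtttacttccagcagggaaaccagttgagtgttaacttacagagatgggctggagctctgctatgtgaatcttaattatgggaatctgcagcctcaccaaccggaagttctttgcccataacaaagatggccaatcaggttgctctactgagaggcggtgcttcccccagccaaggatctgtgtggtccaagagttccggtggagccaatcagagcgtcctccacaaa
Of the 48 genes, 40 had a window of 250 bases in RefSeq, counted here with or without annotated exon of the gene itself. Of these, 10 held an E2F-type match (25.0%), beside 3.66% of the 12632 tested genes with a window. Among genes that fell along the index 3 of 11 held one (Mcm6, Mcm7 and Pola1), among those that rose 2 of 2 (Gins3 and Pole4), and among the others 5 of 27. The Mcm7 window with the match lies wholly in annotated Mcm7 exon (all 250 bases), and the Gins3 window holds 106 exon bases of Gins3. The Sp-type box GGGCGG stood in at least 1 window of 29 of the 40 genes (72.5%, all genes 60.5%). The CCAAT box did so for 23 genes (57.5%, all genes 40.4%), on either strand. TATAAA was found for 3 genes (7.5%, all genes 8.17%) and TTTGAA for 5 (12.5%, all genes 12.9%). A match is a description of letters and not evidence of binding.

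Of the polymerases, Pola1, the catalytic subunit of polymerase alpha, fell along the index by 0.15 log2 per unit (SE 0.03, edgeR adjusted p = 0.0111). Pola1 stood at 148, 108, 159 and 132 CPM (deficient), 136, 90.5, 95.5 and 103 CPM (heterozygous) and 158 and 168 CPM (wildtype). Heterozygous libraries all lay below both wildtype libraries, at a log2 fold change of -0.62 (SE 0.19, edgeR adjusted p = 0.302), the largest difference of the 48 genes in that comparison. Deficient libraries stood 0.37 above heterozygous (SE 0.16, edgeR adjusted p = 0.409) and at -0.25 against wildtype (SE 0.19). Pole4, a small histone-fold subunit of polymerase epsilon, rose by 0.13 per unit (SE 0.04, adjusted p = 0.0294). It stood at 146, 171, 128 and 156 CPM (deficient), 128, 169, 209 and 163 CPM (heterozygous) and 145 and 133 CPM (wildtype). Its top value, 209 CPM, was that of heterozygous replicate 3.

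Pole, the catalytic subunit of polymerase epsilon, differed between libraries in another way. It stood at 347, 225, 311 and 225 CPM (deficient), 299, 390, 242 and 357 CPM (heterozygous) and 306 and 330 CPM (wildtype). Its 3 lowest values were those of the 3 libraries low in Gm23935, with no overlap with the other 7. Pole was the 1 of 48 genes lower in that way (2.08%, beside 5.91% of all tested genes). Prim1 and Rfc4 went the other way, higher in the same 3 libraries than in the other 7 without overlap. The share of all tested genes in that direction is not given here, so these 2 genes are a description. Neither was called in the fit that follows (edgeR adjusted p = 0.543 for Prim1 and 0.179 for Rfc4). Against reads resembling ribosomal RNA, with genotype in the model, Pole had a slope of 0.13 log2 per doubling (SE 0.03, edgeR adjusted p = 0.0362), the 1 of 48 genes called (2.08%, beside 3.48% of all tested genes), in a fit chosen after its values were seen. Its index slope was 0 with all libraries and 0.10 without these 3 (SE 0.03, adjusted p = 0.0199). Pole2, another epsilon subunit, stood at 20.4, 23.4, 20.7 and 21.2 CPM (deficient), 18.9, 16.9, 19.8 and 15.8 CPM (heterozygous) and 19.7 and 18.9 CPM (wildtype), and all deficient libraries lay above all fertile ones, the 1 gene of 48 to do so in CPM (2.08%, beside 0.847% of all tested genes in that direction). In deposited TPM Pole2 overlapped, at 26.7 to 31.4 TPM in deficient libraries and 32.6 TPM in heterozygous replicate 3, and Gmnn was the 1 gene above all fertile libraries (0.842% of all tested genes). The log2 fold change of Pole2 was 0.21 against the fertile genotypes (SE 0.13, adjusted p = 0.904).

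Pold1, the catalytic subunit of polymerase delta and the polymerase gene of highest level, stood at 433, 401, 418 and 559 CPM (deficient), 458, 551, 611 and 400 CPM (heterozygous) and 480 and 427 CPM (wildtype). Its highest values, 611, 559 and 551 CPM, were those of heterozygous replicate 3, deficient replicate 4 and heterozygous replicate 2, and its genotypes overlapped. Prim1, the primase subunit that makes the RNA primer, stood at 244, 253, 246 and 256 CPM (deficient), 246, 203, 252 and 215 CPM (heterozygous) and 241 and 232 CPM (wildtype). All deficient libraries lay above both wildtype ones in Prim1, at a log2 fold change of 0.08 (SE 0.13). Its highest values, 253, 256 and 252 CPM, were those of the libraries low in Gm23935 (deficient replicates 2 and 4 and heterozygous replicate 3). The genes Pola2, Prim2, Pold2, Pold3 and Pole3 had index slopes from -0.08 to 0.09 and were not called.

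In the clamp step, Rfc1, the large subunit of the loader that opens the PCNA ring, had the smallest p of the 48 genes in deficient against heterozygous libraries. Rfc1 stood at 164, 159, 189 and 179 CPM (deficient), 159, 107, 112 and 115 CPM (heterozygous) and 167 and 144 CPM (wildtype). Deficient and heterozygous libraries met at 159 CPM (deficient replicate 2 and heterozygous replicate 1) without overlapping, and the other heterozygous libraries were at 107 to 115 CPM. The log2 fold change was 0.49 (SE 0.14, edgeR adjusted p = 0.346) against heterozygous and 0.15 (SE 0.18) against wildtype libraries. Within the January 29 litters Rfc1 was at 164 and 159 CPM in deficient, 167 CPM in wildtype and 115 CPM in heterozygous libraries. Within March 7 it was at 179 CPM in deficient against 159, 107 and 112 CPM in heterozygous libraries. Without heterozygous replicate 1 the log2 fold change of Rfc1 was 0.68 (SE 0.12) and called (adjusted p = 0.0433), in a fit that called 2.60% of all tested genes and 1 of the 48 (2.08%). Rfc1 also fell along the index, by 0.13 per unit (SE 0.03, adjusted p = 0.01). Heterozygous replicate 1 is the heterozygous library of lowest index, and how much of the Rfc1 difference goes with stage was not tested. With the index as a term in the genotype fit, 0 of 48 genes were called, as without it. The median of the 48 genes in deficient against heterozygous libraries was then 0.06, in place of 0.15. Over all tested genes it was -0.02, in place of -0.05.

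Pcna, the clamp itself, stood at 291, 329, 356 and 300 CPM (deficient), 289, 238, 242 and 269 CPM (heterozygous) and 323 and 275 CPM (wildtype). Deficient libraries lay above heterozygous ones by 0.30 log2 (SE 0.12, edgeR adjusted p = 0.383), and at 0.09 against wildtype (SE 0.14). Rfc4, a small loader subunit, stood at 266, 297, 258 and 283 CPM (deficient), 221, 216, 278 and 195 CPM (heterozygous) and 253 and 235 CPM (wildtype). Its log2 fold change was 0.28 against heterozygous (SE 0.12, edgeR adjusted p = 0.411) and 0.18 against wildtype libraries (SE 0.15), which did not overlap the deficient ones. The highest Rfc4 values, 297, 283 and 278 CPM, were those of the libraries low in Gm23935 (deficient replicates 2 and 4 and heterozygous replicate 3). Rfc2, which is uncertain because Lat2 on the other strand covers 15.1% of its exons, stood at 117, 122, 139 and 134 CPM (deficient), 128, 84.1, 121 and 83.7 CPM (heterozygous) and 127 and 112 CPM (wildtype). Heterozygous replicates 2 and 4 held its lowest values. Exons on the other strand also cover 12.7% of Rfc4 (Eif4a2), 10.8% of Orc1 (Gm12743) and 10.7% of Rfc5 (Wsb2). Other genes share 12.6% of the exon bases of Mcm7, so the counts of these genes carry a similar doubt.

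In the single-strand binding complex, Rpa1 and Rpa2 were also lowest in heterozygous replicates 2 and 4. Rpa2 stood at 603, 604, 603 and 663 CPM (deficient), 588, 442, 641 and 441 CPM (heterozygous) and 633 and 612 CPM (wildtype). Heterozygous replicates 2 and 4 were at 442 and 441 CPM, and replicate 3, of similar index, at 641 CPM. Replicate 3 is also low in Gm23935 (87.4 CPM, beside 4560 and 4500 CPM in replicates 2 and 4), and the part of this was not tested. Rpa1, the large subunit, stood at 241, 213, 329 and 317 CPM (deficient), 325, 162, 298 and 177 CPM (heterozygous) and 296 and 249 CPM (wildtype). Rpa1 was near the threshold along the index, with a slope of -0.19 (SE 0.07, adjusted p = 0.0526). Rpa3, the smallest subunit, stood at 60.6, 67.9, 72.5 and 62.8 CPM (deficient), 62.3, 48.4, 52 and 52.4 CPM (heterozygous) and 63.5 and 52.9 CPM (wildtype), at 0.29 against heterozygous (SE 0.13, edgeR adjusted p = 0.411). Lig1, which seals the nicks between Okazaki fragments, had a slope of 0.01, and Rfc3 and Rfc5 had -0.09 and -0.08, none called.

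All 4 genes of nucleotide supply had slopes below 0 in counts and 3 were called. In deposited TPM only Tyms of these was called by limma (adjusted p = 0.0164), and Rrm2 (adjusted p = 0.091), Dut (adjusted p = 0.227) and Rrm1 (slope 0.01) were not. Tyms, thymidylate synthase, fell by 0.25 log2 per unit of index (SE 0.04, edgeR adjusted p = 0.00184) and stood at 88.8, 77.5, 123 and 103 CPM (deficient), 133, 58.2, 86.4 and 73.7 CPM (heterozygous) and 114 and 102 CPM (wildtype). Its extremes were 133 CPM in heterozygous replicate 1 and 58.2 CPM in heterozygous replicate 2. Rrm2, the regulated subunit of ribonucleotide reductase, fell by 0.18 (SE 0.05, adjusted p = 0.0279) and stood at 302, 297, 421 and 371 CPM (deficient), 405, 214, 347 and 253 CPM (heterozygous) and 378 and 301 CPM (wildtype). Dut, which keeps uracil out of DNA by removing dUTP, fell by 0.14 (SE 0.04, adjusted p = 0.0393) and stood at 321, 338, 356 and 350 CPM (deficient), 380, 215, 293 and 231 CPM (heterozygous) and 331 and 294 CPM (wildtype). Without heterozygous replicate 1 the slope of Dut was -0.05 and not called (adjusted p = 0.786). Rrm1, the catalytic subunit of the reductase, stood at 343, 326, 375 and 372 CPM (deficient), 375, 348, 395 and 361 CPM (heterozygous) and 384 and 354 CPM (wildtype). Its slope was -0.03 (SE 0.03), and the difference between the slopes of both reductase subunits was not tested.

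Genes that surround the machinery moved with stage in mixed directions. Of 32 regulators of entry into S phase, 5 rose and 12 fell along the index (53.1% called, all genes 24.8%; median slope -0.07, all genes 0). The D-type cyclins Ccnd1 and Ccnd2 rose, by 0.44 (SE 0.05, edgeR adjusted p = 0.000134) and 0.57 (SE 0.06, adjusted p = 0.000204). The other D-type cyclin, Ccnd3, fell by 0.19 (SE 0.04, adjusted p = 0.00817). The E-type cyclin Ccne1 had a slope of 0 (adjusted p = 0.983), and Ccne2 rose by 0.60 (SE 0.07, adjusted p = 0.000224). The S phase cyclin Ccna2 fell by 0.27 (SE 0.03, adjusted p = 0.000245). Of 41 other replication and chromatin-assembly genes, 3 rose and 6 fell (22.0% called, median -0.04). Asf1b, a histone chaperone, rose by 0.40 (SE 0.05, adjusted p = 0.000374), and Uhrf1, which guides maintenance methylation behind the fork, by 0.41 (SE 0.05, adjusted p = 0.000506). Cdca7 fell by 0.23 (adjusted p = 0.00292). Shmt1, an enzyme of the folate cycle that feeds thymidylate synthesis, fell by 0.29 (adjusted p = 0.00342).

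Of 6 relatives of replication proteins listed for meiosis, 3 rose and 1 fell. Meiob and Spata22, which encode an RPA-like pair of meiotic recombination, rose by 1.16 (SE 0.08, edgeR adjusted p = 2.75e-05) and 1.24 (SE 0.10, adjusted p = 4.15e-05), and the MCM-like gene Mcmdc2 by 0.44 (SE 0.06, adjusted p = 0.000635). BC030867 fell by 0.32 (SE 0.03, adjusted p = 0.000148). The lists behind the index hold other meiotic genes, so a slope here places these genes among them and no more.

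By genotype, 0 genes of these 3 lists were called in any of the 4 comparisons (all genes: 0.0148% at most). In deficient against heterozygous libraries the smallest p in each list belonged to the cell cycle inhibitor Cdkn1a (0.81, SE 0.19, edgeR adjusted p = 0.291), the deoxycytidine kinase Dck (-0.33, SE 0.11) and Mcmdc2 (-0.69, SE 0.37). Next came Rbl2, a relative of the retinoblastoma protein (-0.75, SE 0.25), the loader-like Chtf18 (-0.48, SE 0.16) and Spata22 (-1.57, SE 0.84). Against wildtype, E2f1 stood at 1.07 (SE 0.41), Cdc25a at 0.51 (SE 0.20), Donson at 0.76 (SE 0.21), Mcmbp at 0.77 (SE 0.25), Mcm9 at 0.43 (SE 0.30) and Mcm8 at 0.31 (SE 0.24) in deficient libraries, each with an edgeR adjusted p of 1. In heterozygous against wildtype libraries, which share the wildtype samples, E2f1 stood at 1.71 (SE 0.42), Rb1 at 1.07 (SE 0.32), Mcmbp at 1.05 (SE 0.26), Donson at 0.79 (SE 0.21), Mcm9 at 0.52 (SE 0.30) and Meiob at 1.39 (SE 1.01), and the smallest adjusted p was 0.243.

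Fen1, the nuclease that trims Okazaki fragments, gave different pictures in the deposited units and was singled out after its values were seen. In TPM it stood at 168, 182, 74.7 and 94.7 TPM (deficient), 72.5, 58.5, 93 and 153 TPM (heterozygous) and 197 and 70.9 TPM (wildtype). The high values were those of the January 29 litters, at 175 ± 18.7 TPM (SD, n = 4) against 77.4 ± 13.9 TPM in the March litters (SD, n = 6), 2.26-fold higher with no overlap. Of the 48 genes only Fen1 did so (2.08%, beside 0.0984% of all tested genes in that direction). By limma on log2(TPM + 1), with genotype in the model, the difference was 1.16 (SE 0.15, adjusted p = 0.331), and 0 of 48 genes were called (0.00492% of all genes).

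In counts Fen1 did not divide by date. It stood at 11.2, 11.5, 11.6 and 14.2 CPM (deficient), 10.3, 10.4, 13.2 and 9.54 CPM (heterozygous) and 14.6 and 12.3 CPM (wildtype), at 11.7 ± 2.1 CPM in the January 29 litters (SD, n = 4) and 12 ± 1.56 CPM in the March litters (SD, n = 6), with overlap (0.354% of all tested genes did not overlap), an edgeR log2 fold change of -0.09 (SE 0.17, adjusted p = 0.998; 0% of all genes were called). Exons of other genes on the opposite strand cover 84.2% of Fen1: the antisense gene Gm10143 shares 78.8% and Tmem258 shares 5.37%. Its counts were 282 to 601 reads per library, and its deposited TPM was 8.47 times the level computed from those counts, where the median of the 48 genes was 1.05. The strand setting of the counting was not given in the sources used here, so neither unit can be taken as the level of Fen1. Gm10143 itself stood at 0.749 to 2.37 CPM.

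**Figure D5:**
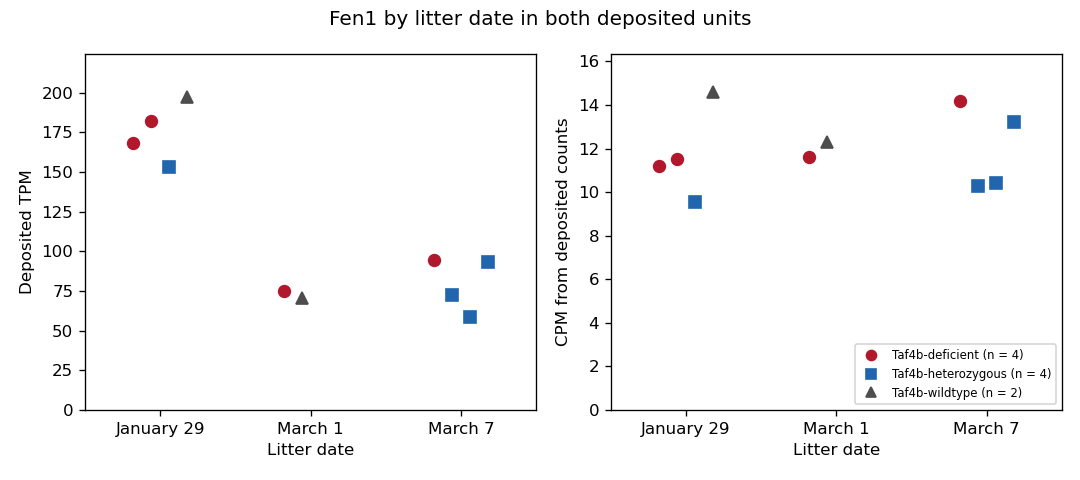
Fen1 in each library by litter date, in deposited TPM (left) and in CPM from deposited counts (right), both axes from 0. The 4 libraries of January 29 stand at 153 to 197 TPM and the 6 March libraries at 58.5 to 94.7 TPM, and in CPM the dates overlap between 9.54 and 14.6 CPM.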

How the data were processed

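The submitters' processing notes name Trim Galore 0.5.0 and FastQC 0.11.5 for the reads, HISAT2 2.1.0 on GRCm38 for alignment, and SAMtools 1.9. By those notes the authors made the read counts per gene with featureCounts (Subread 1.6.2) and the TPM values with StringTie 1.3.3b. The strand setting of the counting and its annotation release are not given in the sources used here. One DESeq2 table from the authors holds, per the file headers, a mean normalized signal, log2 fold changes and standard errors, a test score, and p-values before and after adjustment. Its contrast is not stated.

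Counts were tested with edgeR 4.0.16 in R 4.3.3 (TMM scaling, filterByExpr by genotype, 1 quasi-likelihood model of 3 genotype groups over 10 libraries, Benjamini-Hochberg adjustment over 20317 genes, called under 0.05). The meiotic index (prior count 2) was a continuous covariate beside genotype. SE is derived from the F statistic. Coordinates and exon overlaps come from GENCODE M21, promoter windows from RefSeq. The test was checked on simulated counts. The 48 genes, the lists and the tests were chosen with earlier results of these data known. Per-library values are printed for 35 genes taken by a rule: in each step the highest 2 and lowest 1 in TPM, the smallest p in deficient against heterozygous, deficient against wildtype and the index, and called genes up to 8 per fit. Fen1 falls outside it. Alternatives used DESeq2 1.42.0, limma 3.58.1, TPM, other scalings and filters, litter date, ribosomal-like reads and replicate number as terms, and left out libraries. No pair of libraries agreed within sampling noise (lowest chi-square per degree of freedom 9.69).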

Additional observations from a re-analysis of the deposited data

Results flagged for a closer look

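Of 192 groups of 4 libraries checked in CPM and TPM, 11 held a library far from the others, where chance gives about 1 in 20. Heterozygous replicate 1, the library of lowest meiotic index, stood apart from the other heterozygous libraries in Mcm7 (432 CPM, others 193 to 232), Rfc1 (159 CPM, others 107 to 115) and Gins3 (17.1 TPM, others 57.8 to 64.7). Deficient replicate 4, low in Gm23935, stood above the other deficient libraries in Rpa2 (663 CPM, others 603 to 604; 732 TPM, others 606 to 626), Fen1 (14.2 CPM, others 11.2 to 11.6), Cdc45 (184 TPM, others 152 to 154) and Prim2 (86.7 TPM, others 66.3 to 69.3). Deficient replicate 2, also low in Gm23935, was among those others in each of these genes. Heterozygous replicate 3, also low in Gm23935, stood above the other heterozygous libraries in Pole2 (32.6 TPM, others 23.9 to 25.3), Pola2 (103 TPM, others 79.6 to 82.1) and Lig1 (243 TPM, others 209 to 213). The part of stage or of ribosomal-like reads in these values was not tested.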

How the results depend on the processing

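The count of replication genes called by genotype stayed at 0 in deficient against wildtype and deficient against both fertile genotypes under every alternative run. In deficient against heterozygous libraries it was 12 (all higher, 14.8% of all genes called) with limma voom and sample weights, and leaving out 1 library at a time gave 0 to 1, the 1 being Rfc1 without heterozygous replicate 1 (2.60% of all genes called). In heterozygous against wildtype libraries voom gave 4, all lower. Along the meiotic index the 15 calls became 23 with voom (34.5% of all genes called), 23 with ribosomal-like reads as a term (32.4%) and 25 without the 3 libraries low in Gm23935 (34.0%, an alternative chosen after seeing the data), beside 24.8% of all genes with the 15, and all of the 15 were among each of these. With the replicate block the count was 2 (6.81% of all genes called), leaving out 1 library at a time gave 2 to 21, and without the 2 libraries farthest from the median index it was 0, with fewer samples in the fit. Other alternatives gave 10 to 18 calls, with 16 (32.6% of all genes called) among genes with a mean of at least 1 CPM. The slope of Pole turned to 0.10 without the 3 libraries low in Gm23935 (adjusted p = 0.0199). Over single genes and alternatives of the index fit, 77 values lost a call and 40 gained one; the cause was not tested. Replicate numbers did not pair the samples, since same-numbered libraries deviated together with correlations of -0.42 to 0.38. Computed from counts and exon length, Gmnn stood at 398 TPM in place of 313 TPM, and 11 genes moved by over 1.5 times. Genes whose libraries did not overlap between genotypes were compared in TPM after seeing the data, with 5 in place of 4 against heterozygous libraries and 1 in either unit against fertile ones. With 4, 4 and 2 libraries, small differences by genotype are beyond what these data can show.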
